A study of Mus musculus with 28 samples.

Results

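The genes examined were 9 genes for subunits of ionotropic glutamate receptors, 5 of the NMDA receptor (*Grin1*, *Grin2a*, *Grin2b*, *Grin2d* and *Grin3a*) and 4 of the AMPA receptor (*Gria1*, *Gria2*, *Gria3* and *Gria4*). They were chosen by gene symbol and not by a cut on a measured value, out of 49477 genes that both count tables of the study hold. Earlier results of these data were known when they were chosen. All 9 had a mean of at least 10 counts per mouse, the minimum for a test, as did 16266 genes in all. RNA sequencing was performed on micropunches of the amygdala, aimed at its basolateral and central nuclei, of 28 adult female mice whose strain the labels give as C57BL6/J, bought at 7 weeks of age. During 28 days of 2-bottle choice drinking, 10 Water mice had no access to alcohol, 9 Acute mice had a single 24 h access to 20% ethanol on the last day, and 9 Chronic mice had every-other-day access to 20% ethanol for the whole period. All mice were housed singly with free access to tap water and chow, and tissue was taken on day 29. The mice came in 2 batches, of which the first held 4 Water, 4 Acute and 3 Chronic mice; the second held 6, 5 and 6.

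NMDA receptors are glutamate-gated channels that pass calcium when a co-agonist is bound and the membrane is depolarised; each contains the obligatory subunit GluN1, encoded by *Grin1*, together with GluN2 subunits, which bind glutamate, or GluN3 subunits. AMPA receptors are built from the subunits GluA1 to GluA4, encoded by *Gria1* to *Gria4*, and carry most of the fast excitatory transmission in the brain. Both serve synaptic plasticity in the amygdala, and NMDA receptors are a known target of ethanol.

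The channel pore is a stretch in which several of the members resemble one another, and it is shown here because reads from such stretches have to be assigned among the members. A window of 45 coding bases around the codon at the pore's selectivity site was read from the GENCODE M21 transcripts (GRCm38). Capitals mark this codon, a glutamine codon in the AMPA receptor genes, which in *Gria2* is the one edited in the RNA, and an asparagine codon in the NMDA receptor genes shown.
*Gria1*: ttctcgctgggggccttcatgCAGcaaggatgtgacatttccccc
*Gria2*: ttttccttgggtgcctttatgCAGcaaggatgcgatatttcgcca
*Gria3*: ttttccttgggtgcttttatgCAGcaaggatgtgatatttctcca
*Gria4*: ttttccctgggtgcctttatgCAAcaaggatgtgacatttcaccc
*Grin1*: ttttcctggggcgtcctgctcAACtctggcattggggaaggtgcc
*Grin2a*: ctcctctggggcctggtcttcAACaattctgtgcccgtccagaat
*Grin2d*: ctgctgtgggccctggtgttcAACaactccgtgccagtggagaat

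The codon of *Gria2* lies at chr3:80706911-80706913 on the minus strand, in exon 11, and that of *Grin2d* at chr7:45854393-45854395 on the minus strand, in exon 8. Of the 45 bases, *Gria2* and *Gria3* had 42 in common, and *Grin2a* and *Grin2d* had 36. *Grin1* stood apart from both, with 18 in common with *Grin2a* and with *Grin2d* and 18 to 20 with the AMPA receptor genes. Over whole transcripts the members were distinct, since at most 65 of a gene's words of 31 bases also occurred in another gene of these receptor families. Gene counts do not show how much of the *Gria2* RNA was edited.

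**Figure D1:**
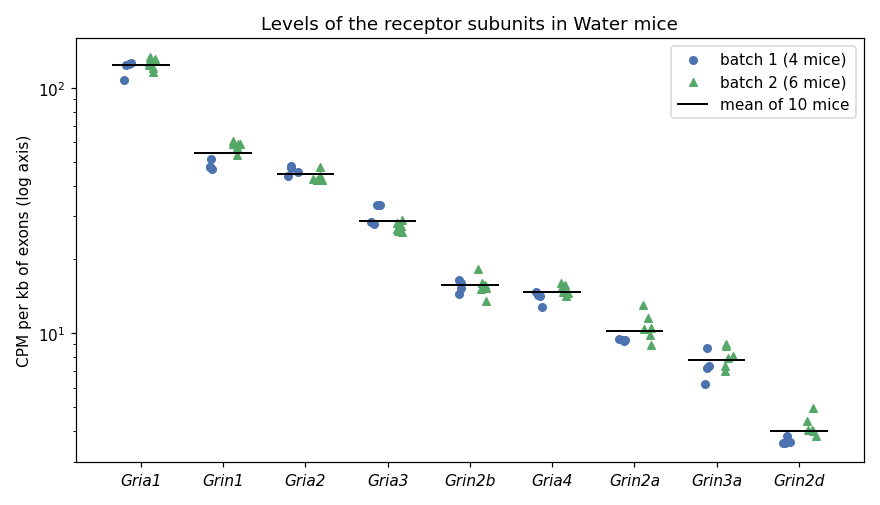
Level of each subunit gene in the 10 Water mice, as normalised counts (CPM, counts scaled to a common library size) per kb of exons on a log axis; circles are mice of batch 1, triangles mice of batch 2 and lines the mean of all 10. *Gria1* stood highest at 124 and *Grin2d* lowest at 3.98 CPM per kb.

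To compare levels between genes, normalised counts (CPM) were divided by the length of each gene's exons, and the Water mice served as the baseline. *Gria1*, which encodes GluA1, had the highest level of the 9 genes, 124 ± 7.42 CPM per kb (SD, n = 10), and 98.5% of all genes tested had a lower one. *Grin1*, for the obligatory NMDA receptor subunit, followed at 54.2 ± 5.52 (SD, n = 10), then *Gria2*, for the subunit that limits calcium entry, at 44.5 ± 2.38 and *Gria3* at 28.6 ± 2.74. The ranges of *Gria1* and *Grin1* did not overlap between mice, nor did those of *Gria2* and *Gria3* or of *Gria3* and the next gene, whereas *Grin1* and *Gria2* did overlap.

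The lower part of the order was less separate. *Grin2b*, which encodes a GluN2 subunit that predominates early in development, stood at 15.7 ± 1.26 CPM per kb and *Gria4* at 14.7 ± 0.904 (SD, n = 10 each), with overlapping ranges. *Grin2a*, whose GluN2 subunit gains weight as synapses mature, stood at 10.2 ± 1.26 and overlapped with both *Gria4* and *Grin3a*, at 7.77 ± 0.907. *Grin2d*, a GluN2 gene known from interneurons in the adult forebrain, was lowest at 3.98 ± 0.426, below every Water mouse's value of *Grin3a*, and 49.6% of all genes tested lay below it. The order was the same in each batch. Within each batch the ranges of *Gria4* and *Grin2a* did not overlap. Those of *Grin2a* and *Grin3a* overlapped in batch 2 only, and those of *Grin1* and *Gria2* in batch 1 only.

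The length chosen moved these levels. *Grin1* has many isoforms, and its level was 123 ± 12.5 CPM per kb when divided by the longest transcript in place of the union of exons, while *Gria1* was 135 ± 8.09 (SD, n = 10 each). With that length *Gria4* stood above *Grin2b*, and *Grin3a* above *Grin2a*, and the other ranks did not change. Of the remaining NMDA receptor genes, *Grin2c*, a GluN2 gene known from cerebellum and astrocytes, reached 8.37 ± 1.42 CPM per kb (SD, n = 10), a mean above those of *Grin3a* and *Grin2d* and above 68.3% of all genes tested, and *Grin3b*, the other GluN3 gene, had 0 to 10 counts per mouse and was not tested.

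**Figure D2:**
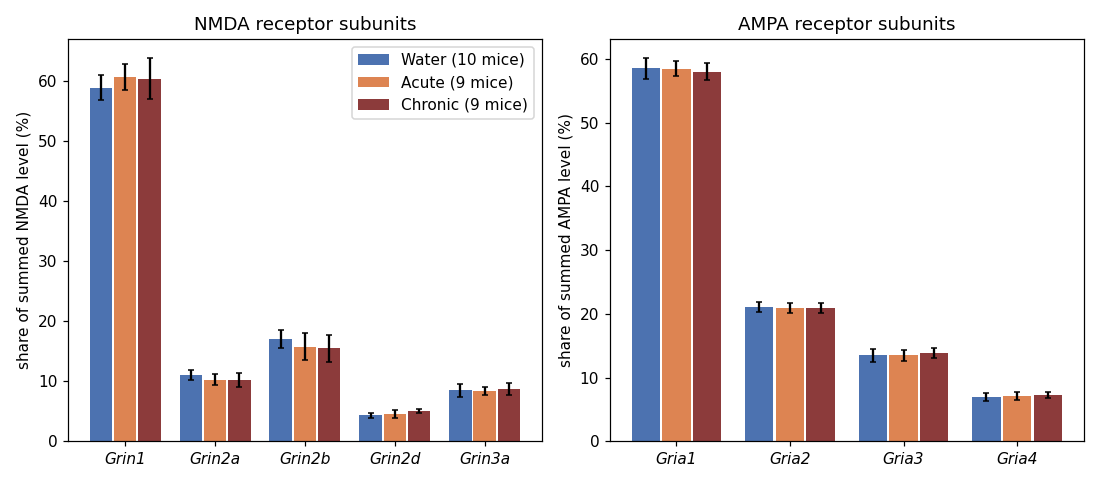
Mean share of each subunit gene in the summed CPM per kb of its receptor family, in percent, for Water, Acute and Chronic mice; bars start at 0 and error bars are the SD over mice. *Grin1* and *Gria1* made up more than all other members of their family together in every group at this gene length.

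The mixture of subunit RNAs within each receptor family was compared between the 3 groups, over the 5 NMDA and 4 AMPA members. *Grin1* made up 59.0% ± 2.11 of the summed NMDA receptor level in Water mice (SD, n = 10), 60.8% ± 2.15 in Acute mice and 60.5% ± 3.44 in Chronic mice (n = 9 each). *Gria1* made up 58.5% ± 1.64 of the AMPA receptor level in Water, 58.5% ± 1.17 in Acute mice and 57.9% ± 1.32 in Chronic mice. The smallest NMDA share, that of *Grin2d*, was 4.35% ± 0.455 in Water, 4.64% ± 0.660 in Acute mice and 5.02% ± 0.364 in Chronic mice, and these ranges overlapped. With *Grin2c*, which is not among the 9, added to the NMDA sum, *Grin1* made up 54.1% ± 1.59, 55.4% ± 1.82 and 55.2% ± 2.86 in the 3 groups, and *Grin2c* itself 8.32% ± 0.849, 8.87% ± 0.537 and 8.59% ± 0.658.

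Ratios describe the receptors' make-up. The ratio of *Grin2a* to *Grin2b*, which rises in maturing forebrain, was 0.650 ± 0.0573 in Water, 0.658 ± 0.0629 in Acute mice and 0.666 ± 0.0618 in Chronic mice (SD). *Gria2* against the sum of the other AMPA genes was 0.267 ± 0.0129 in Water, 0.265 ± 0.0123 in Acute mice and 0.264 ± 0.0128 in Chronic mice. For both ratios the group means lay closer together than 1 SD. *Grin1* against the sum of *Grin2a*, *Grin2b* and *Grin2d* was 1.82 ± 0.162 in Water, 1.99 ± 0.229 in Acute mice and 1.99 ± 0.323 in Chronic mice, which is further apart than the SD of the Water mice but not than that of the other groups, and the ranges overlapped. No test was applied to these ratios. Dividing by the longest transcript raised the share of *Grin1* in Water mice to 72.6% and lowered that of *Gria1* to 49.4%. It changed the ratio of *Grin2a* to *Grin2b* to 0.771 and that of *Gria2* to the others to 0.324, and lowered the summed AMPA level against the summed NMDA level from 2.32 to 1.62; with *Grin2c* in the NMDA sum and the union of exons it was 2.12.

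Baseline levels differed between the batches, and for some members by more than between drinking groups. Among Water mice, *Grin1* was 0.27 higher on the log2 CPM scale in batch 2 than in batch 1 and *Grin2d* was 0.20 higher, with no overlap between the 4 and the 6 mice. *Gria3* differed by -0.17 in batch 2 and *Grin2b* differed by 0.0078, and both overlapped. Over all genes tested the median absolute difference between batches was 0.13. Batch was therefore a covariate in the main tests across both batches. Exact tests permuted labels within batches, and the ComBat-seq alternatives adjusted the counts for batch before the fit. The log2 CPM values per mouse below have their batch mean removed, whereas marker sums in CPM do not.

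**Figure D3:**
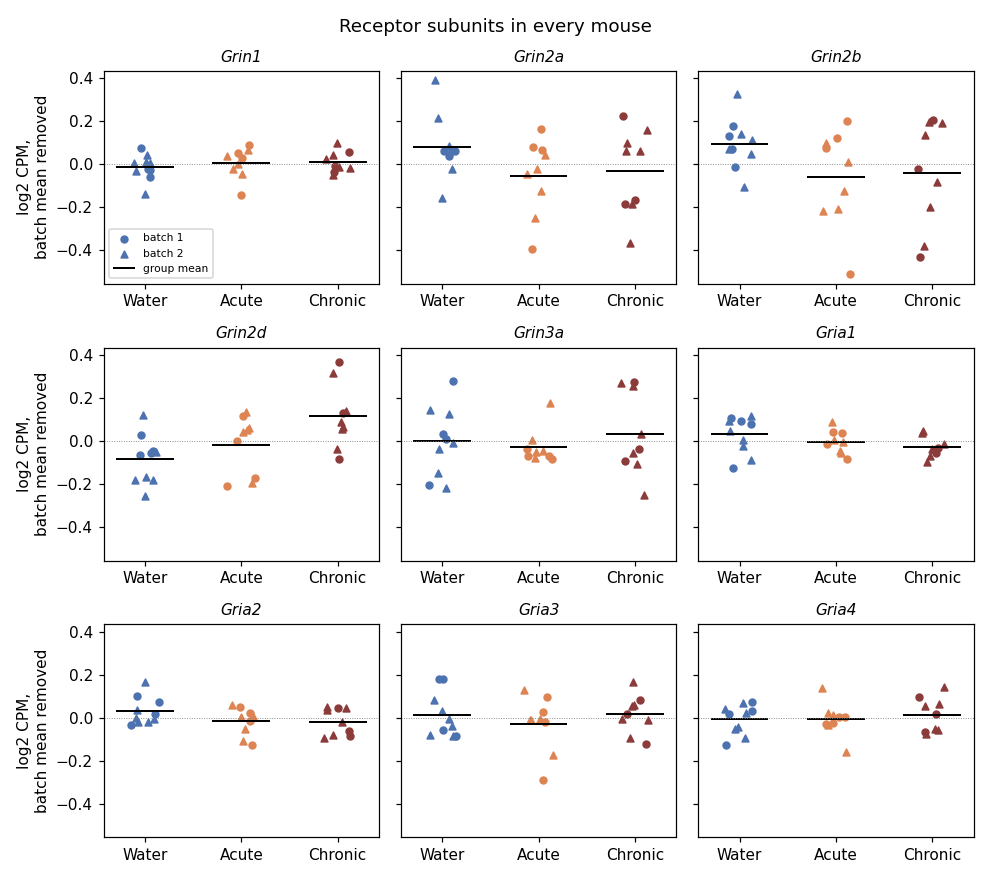
Log2 CPM of each subunit gene in every mouse with the mean of its batch removed, so that 0 is the batch mean; circles are batch 1, triangles batch 2 and lines group means. The 3 groups overlap for every gene, and 8 of 9 Chronic mice are above the mean of the Water mice of their own batch for *Grin2d*.

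A single drinking session was compared with water by edgeR's quasi-likelihood test, adjusted by Benjamini-Hochberg over all 16266 genes. No member passed an adjusted p of 0.05, and neither did any other gene (0%). With DESeq2 no member passed either, against 8 of 16266 genes, and with limma none, against 3 of 16266. With ComBat-seq followed by DESeq2 no member passed, against 30 of 16293 genes. At an unadjusted p under 0.05, 0 of the 9 members stood against 9.52% of all genes. With 1 mouse left out, *Grin2a* came under it in 2 of 28 fits and *Grin2b* in 1 of 28. Of the fitted log2 fold changes 2 were positive and 7 negative, with a median of -0.036 beside 0.0011 over all genes, and the ranges of the Acute and Water mice overlapped for all 9.

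*Grin2b* and *Grin2a* had the largest fitted differences between Acute and Water mice. With batch means removed, log2 CPM of *Grin2b* was -0.11 to 0.33 in Water mice (median 0.092) and -0.51 to 0.20 in Acute mice (median 0.010). That of *Grin2a* was -0.16 to 0.39 in Water mice (median 0.062) and -0.40 to 0.16 in Acute mice (median -0.023). In both genes the spread in Acute mice reached further down, and 6 of 9 Acute mice were below the Water mean of their own batch for *Grin2a* and 7 of 9 for *Grin2b*. The lowest Acute value in both was that of mouse 33 of batch 1, and the next were -0.22 for *Grin2b* and -0.25 for *Grin2a*. Among all mice, mouse 33 also had the lowest mean log2 CPM of pallial excitatory neuron markers, 5.34, and the highest of oligodendrocyte markers, 7.49. In batch 1, 3 of 4 Acute mice were above every Water mouse for *Grin2a*.

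The fitted log2 fold change of *Grin2b* was -0.15 (SE 0.087, 95% confidence interval -0.32 to 0.031), with an adjusted p of 0.597 by edgeR's quasi-likelihood test. That of *Grin2a* was -0.13 (SE 0.075, interval -0.28 to 0.023), with an adjusted p of 0.591 by the same test. With offsets for GC content and length they were -0.063 for *Grin2b* and -0.060 for *Grin2a*. These are the least precise members, and the intervals still admit a difference as far as -20.1% for *Grin2b* and -17.9% for *Grin2a*. *Grin1* at 0.023 (SE 0.030) was the best measured, with an interval from -2.58% to 5.97% in Acute mice.

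The AMPA receptor genes differed little after the single session. *Gria1*, whose GluA1 subunit enters synapses during plasticity, had a log2 fold change of -0.036 (SE 0.032) and *Gria2* one of -0.049 (SE 0.031), with adjusted p of 0.737 and 0.632 by edgeR's quasi-likelihood test. *Gria3* stood at -0.040 (SE 0.048) and *Gria4* at -0.00086 (SE 0.036). The 95% confidence intervals of the 4 genes together ran from -0.14 to 0.072. The signs of *Grin2d*, *Grin3a*, *Gria3* and *Gria4* differed between the 2 batches in this comparison.

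**Figure D4:**
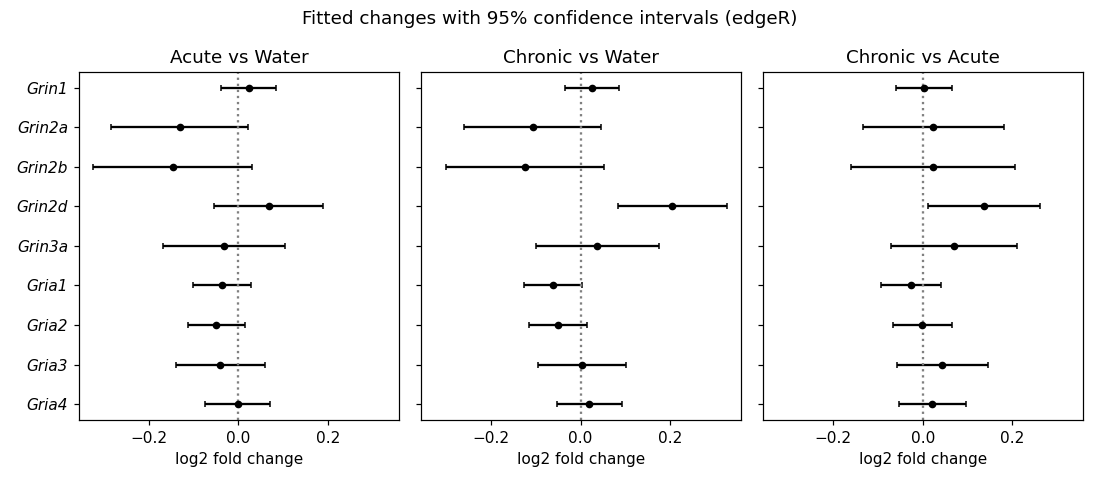
Fitted log2 fold change of each subunit gene (points) with its 95% confidence interval (bars) from edgeR's quasi-likelihood fit over 28 mice, for Acute against Water, Chronic against Water and Chronic against Acute. The dotted line marks no change, and the intervals of *Grin2d* in the 2 comparisons of Chronic mice are those that lie above it.

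Repeated drinking was compared with water in the same fit. No member passed an adjusted p of 0.05, against 3 genes of 16266 (0.0184%), *Klf2*, *Haghl* and *Kdm3a*. At an unadjusted p under 0.05 stood 1 of 9 members, *Grin2d*, beside 10.5% of all genes. The median log2 fold change of the members was 0.0033 and that of all genes 0.0022, 5 members were positive and 4 negative, and Chronic and Water mice overlapped for all 9. The sign was the same in both batches for 8 of 9 members, *Gria3* being the other.

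*Grin2d* was the member with the smallest p. With batch means removed, its log2 CPM was -0.25 to 0.12 in Water mice (median -0.061), -0.21 to 0.14 in Acute mice (median 0.042) and -0.085 to 0.37 in Chronic mice (median 0.086). The Chronic and Water mice overlapped, and 8 of 9 Chronic mice were above the mean of the Water mice of their own batch. The other, in batch 1, was below all 4 Water mice of that batch. The fitted log2 fold change of Chronic against Water was 0.21 (SE 0.060, 95% confidence interval 0.083 to 0.33), a level 15.3% higher, with p = 0.00179 and an adjusted p of 0.224 by edgeR's quasi-likelihood test, so the difference did not pass. An exact permutation test within batches (2-sided, 32340 regroupings) gave p = 0.00343, unadjusted for the 27 comparisons of members.

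The value of *Grin2d* was alike in the batches, 0.18 (SE 0.10) in batch 1 and 0.22 (SE 0.069) in batch 2, and the difference between batches was 0.039 (SE 0.12). The adjusted p was 0.0914 with DESeq2, 0.0633 with ComBat-seq followed by DESeq2, and 0.698 with edgeR offsets for GC content and length, where the log2 fold change was 0.14. *Grin2d* had 479 to 762 counts per mouse, the fewest of the 9, and the highest GC content at 65.0%. On the opposite strand it overlaps *Gm45441*, which had a log2 fold change of 0.098 (SE 0.065) in Chronic mice, and *Kdelr1*, at 0.0074 (SE 0.042). The sources used here do not say whether the library kept strand. Reads of *Grin2d* and *Gm45441* may therefore not be told apart where they overlap. Of the 31-base words of *Grin2d*, 8.65% also occur in another gene, most often in *Gm45441*.

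The other NMDA receptor genes differed less from Water in Chronic mice relative to their error. *Grin2b* was at -0.12 (SE 0.087) and *Grin2a* at -0.11 (SE 0.075), with adjusted p of 0.643 and 0.642 by edgeR's quasi-likelihood test. With offsets for GC content and length they were -0.053 and -0.038. With 1 mouse left out they ranged from -0.16 to -0.074 and from -0.15 to -0.067. *Grin2b* ranged from -0.43 to 0.21 in the Chronic mice (median -0.025), wider than in Water mice, with an SD of 0.25 against 0.12. *Grin1* was at 0.025 (SE 0.030) and *Grin3a*, whose GluN3A subunit lowers calcium flow, at 0.038 (SE 0.067). *Grin2c* was at 0.036 (SE 0.052).

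Among the AMPA receptor genes *Gria1* had the smallest p in Chronic mice. Its log2 CPM with batch means removed was -0.13 to 0.12 in Water mice (median 0.063), -0.085 to 0.089 in Acute mice (median -0.0071) and -0.098 to 0.048 in Chronic mice (median -0.036). The groups overlapped, and 7 of 9 Chronic mice were below the Water mean of their own batch. The fitted log2 fold change was -0.061 (SE 0.032, 95% confidence interval -0.13 to 0.0037), a difference of -4.17%, with an adjusted p of 0.506 by edgeR's quasi-likelihood test.

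*Gria2* stood at -0.050 (SE 0.031), *Gria3* at 0.0033 (SE 0.048) and *Gria4* at 0.020 (SE 0.036) in the same comparison. The intervals of the 4 AMPA genes ran from -0.13 to 0.10, none wider than 0.10 above 0 or beyond -0.13 below it. With offsets for GC content and length the sign of *Gria2* was positive, at 0.035 in Acute and 0.034 in Chronic mice.

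Chronic mice were also compared with Acute mice. No gene passed an adjusted p of 0.05 (0%), and at an unadjusted p under 0.05 stood 1 of 9 members, again *Grin2d*, beside 4.44% of all genes. The log2 fold change of *Grin2d* was 0.14 (SE 0.061), with an adjusted p of 0.998 by edgeR's quasi-likelihood test, and the exact permutation test gave p = 0.0769. It was 0.087 with offsets for GC content and length (unadjusted p = 0.157, edgeR's quasi-likelihood test), 0.21 in batch 1 and 0.088 in batch 2, and its unadjusted p was under 0.05 in 33 of 42 other fits. The other 8 members lay between -0.025 and 0.069. The Water mice are shared by the first 2 comparisons, and the 3 comparisons are not independent of each other.

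A test of whether the effect of drinking differed between the batches called no member, and 0% of all genes for Acute and 0.00615% for Chronic mice. The differences of the log2 fold changes of the 9 members between batch 2 and batch 1 ran from -0.12 (*Grin2a*) to 0.16 (*Grin2d*) for Acute mice, and from -0.037 (*Grin2a*) to 0.11 (*Gria3*) for Chronic mice. The smallest unadjusted p was that of *Grin2d* in Acute mice, 0.188, with an adjusted p of 0.999 by edgeR's quasi-likelihood test.

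Genes that act with the receptors were grouped in 6 lists, of which 53 genes other than *Grin2c* were tested. None passed an adjusted p of 0.05 in any of the 3 comparisons. At an unadjusted p under 0.05, 1 was higher and 4 lower in Acute than in Water mice (9.43% of the 53), 3 higher and 5 lower in Chronic than in Water mice (15.1%), and 4 higher and 1 lower in Chronic than in Acute mice (9.43%). The shares over all genes were 9.52%, 10.5% and 4.44%. The medians of the 53 log2 fold changes were -0.013, -0.0056 and 0.0062.

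The kainate and delta receptor list had 8 genes tested and none at an unadjusted p under 0.05. The kainate receptor genes *Grik2* and *Grik4* had the smallest p in Acute mice, at -0.11 (SE 0.058) and 0.20 (SE 0.12). In Chronic mice these were *Grik5*, a further kainate subunit gene, at 0.068 (SE 0.034), and *Neto2*, for an auxiliary subunit, at -0.072 (SE 0.038). Against Acute mice, *Grid1*, a delta receptor gene, was at -0.068 (SE 0.034) and *Grik5* at 0.060 (SE 0.035).

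Of 14 AMPA receptor auxiliary and assembly genes, *Cacng7*, which encodes a transmembrane AMPA receptor regulatory protein, had the smallest p of all list genes in Chronic mice. Its log2 fold change was 0.13 (SE 0.038), and the adjusted p was 0.234 by edgeR's quasi-likelihood test. *Frrs1l*, needed for AMPA receptor assembly, was at -0.083 (SE 0.035). In Acute mice *Shisa6*, for a protein that keeps AMPA receptors at synapses, was at -0.18 (SE 0.080) and *Cacng7* at 0.074 (SE 0.038). Against Acute mice, Chronic mice had *Shisa6* at 0.18 (SE 0.082) and *Porcn*, an acyltransferase gene, at 0.092 (SE 0.051).

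Among 17 genes of postsynaptic scaffolds and trafficking, *Dlgap2*, a scaffold gene, was at -0.10 (SE 0.052) in Acute mice. In Chronic mice *Dlg2*, for the scaffold PSD-93, was at -0.090 (SE 0.033) and *Akap5*, which anchors kinases near the receptors, at -0.13 (SE 0.057). The list's median was -0.041 in Acute and -0.028 in Chronic mice, beside 0.0011 and 0.0022 over all genes. In Chronic against Acute mice the smallest p were those of the scaffold genes *Shank1*, at 0.12 (SE 0.056), and *Shank2*, at 0.12 (SE 0.058).

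Of 9 kinase and phosphatase genes, *Ppp3ca*, the catalytic subunit of calcineurin, was at -0.14 (SE 0.051) in Chronic against Water and -0.12 (SE 0.053) against Acute mice. *Src*, a kinase that acts on NMDA receptors, was at 0.086 (SE 0.037) and 0.088 (SE 0.038). In Acute mice *Fyn*, a further kinase gene, was at 0.050 (SE 0.032).

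Of 5 genes for co-agonist handling and RNA editing, *Srr*, whose enzyme makes the co-agonist D-serine, was at -0.094 (SE 0.032) in Acute and -0.073 (SE 0.032) in Chronic mice. *Slc1a4*, a transporter of small neutral amino acids, was at -0.070 (SE 0.029) in Acute and -0.030 (SE 0.029) in Chronic mice. The smallest adjusted p of this list was 0.417, by edgeR's quasi-likelihood test. Between Chronic and Acute mice *Slc1a4* differed by 0.040 (SE 0.030) and *Srr* by 0.021 (SE 0.033).

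In a tissue sample, fewer cells of a type and less RNA per cell cannot be told apart. Lists of markers of 11 cell types and 4 measures of the libraries were therefore set beside the members, and none of the 45 comparisons passed an adjusted p of 0.05 by exact permutation within batches. Neuronal markers (10 of 10 tested, none at 0) summed to 6439 to 7180 CPM in Water, 6375 to 7245 in Acute mice and 6484 to 7387 in Chronic mice, and these ranges overlapped. Astrocyte markers (10 of 10) summed to 3104 to 3586, 3102 to 3507 and 3067 to 3388 CPM. The markers of striatal neurons (8 of 8) ranged more widely and summed to 575 to 2258 CPM in Water, 1027 to 2159 in Acute mice and 789 to 1893 in Chronic mice.

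Some of these measures differed between groups at an unadjusted p under 0.05. The smallest p was that of the total count, which was 703710 higher in Chronic than in Water mice (exact permutation p = 0.0021, adjusted p = 0.0946) and 328690 higher than in Acute mice (exact permutation p = 0.0435, adjusted p = 0.252). Striatal markers differed by -0.39 on the log2 scale in Chronic from Acute mice (exact permutation p = 0.0448, adjusted p = 0.252). Markers of central amygdala neurons (6 of 6, none at 0) were 0.26 higher on the log2 scale in Acute than in Water mice (exact permutation p = 0.0268, adjusted p = 0.241), and summed to 217 to 334 CPM in Water and 250.4 to 374 in Acute mice. Over the 28 mice, with group and batch means removed, their mean had a Pearson r of -0.53 with *Grin2b* and -0.43 with *Grin2a*. Interneuron markers (8 of 8, none at 0) were 0.095 higher on the log2 scale in Chronic than in Water mice, with an exact permutation p of 0.0251 and an adjusted p of 0.241; they summed to 525.8 to 731.3 CPM in Water and 537 to 816 in Chronic mice. The slope of log2 CPM per 10 percentage points of GC was 0.052 higher in Chronic than in Water mice (exact permutation p = 0.00458, adjusted p = 0.103). The slope per doubling of gene length differed by -0.019 in Acute and -0.021 in Chronic from Water mice (exact permutation p = 0.0162 and 0.0404, adjusted p = 0.241 and 0.252). *Grin2d* has the highest GC content of the 9 genes, and within groups and batches its r was 0.071 with the GC slope, 0.21 with the interneuron markers, -0.25 with the striatal markers and 0.0090 with the total count. *Grin2b* and *Grin2a* have the greatest exon lengths at 24.8 and 17.9 kb; with offsets for both properties, *Grin2b* in Chronic mice was at -0.053 and *Grin2a* at -0.038. The part of these trends, of the total count and of the markers in the differences of the members was not tested further.

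**Figure D5:**
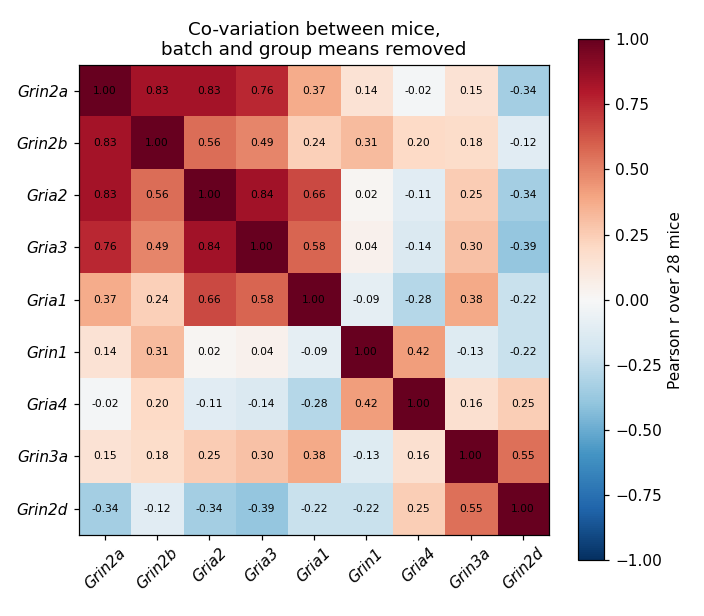
Pearson correlation of log2 CPM between the 9 subunit genes over 28 mice, after removal of batch and group means; red is positive and blue negative. *Grin2a*, *Grin2b*, *Gria2* and *Gria3* form a block with values from 0.49 to 0.84, and *Grin2d* has its highest value, 0.55, with *Grin3a*.

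Within groups and batches some members varied together from mouse to mouse. These correlations describe 28 mice that share libraries, dissection and depth within each point, and carry no test. *Gria2* and *Gria3* had a Pearson r of 0.84, *Grin2a* and *Gria2* 0.83, and *Grin2a* and *Grin2b* 0.83. *Grin2d* was correlated at 0.55 with *Grin3a* and at -0.39 with *Gria3*. *Grin1* was at most at 0.42 with any other member.

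The members also differed in how much they varied. *Grin1*, *Gria2* and *Gria1* were among the steadier genes, with residual SDs of 0.064, 0.067 and 0.069 on the log2 scale, and 7.20%, 9.48% and 10.7% of all genes tested varied less. *Grin2b* at 0.21 and *Grin2a* at 0.18 varied most of the 9. *Grin2d* stood at 0.13 and *Grin3a* at 0.16.

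Several members varied with the markers of cell types. *Gria3* had an r of 0.76 with the mean of the neuronal markers and of -0.74 with that of the oligodendrocyte markers (9 of 10 tested), and *Gria2* of 0.60 and -0.62. *Grin2d* ran the other way, at -0.57 with neuronal markers and 0.33 with oligodendrocyte markers. The neuron types differed: *Gria3*, *Gria2* and *Grin2d* were at 0.76, 0.57 and -0.53 with markers of pallial excitatory neurons. With markers of GABAergic neurons the same genes were at -0.70, -0.53 and 0.33. *Grin3a* was at 0.60 with interneuron markers and -0.69 with striatal markers, and *Gria1* at -0.51 with striatal markers. What part the composition of the tissue had in these values was not tested.

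For each member the 2 other genes with the most similar pattern over the 28 mice were *Cntnap1* (r = 0.85) and *Pcdhgc5* (0.84) for *Grin1*, *Nbea* (0.90) and *Lrrc7* (0.89) for *Grin2a*, and *Lrp1b* (0.94) and *Plec* (0.93) for *Grin2b*. For *Grin2d* they were *Npffr1* (0.87) and *Nynrin* (0.85), and for *Grin3a* *Frmpd3* (0.86) and *Arl4c* (0.84). For the AMPA genes they were *Pcdh20* (0.87) and *Zfpm2* (0.85) for *Gria1*, *Pgm2l1* (0.90) and *Rnf150* (0.88) for *Gria2*, *Nrcam* (0.92) and *Cacna2d1* (0.91) for *Gria3*, and *Rtn4* (0.81) and *Sema6d* (0.78) for *Gria4*. The genes most like *Grin2b* are themselves long, with 23.8 and 18.1 kb of exons.

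The 9 genes lie on 9 different chromosomes of GRCm38. *Grin2d* (ENSMUSG00000002771) spans chr7:45831883-45878378, *Grin1* (ENSMUSG00000026959) chr2:25291181-25319187, *Grin2a* (ENSMUSG00000059003) chr16:9567898-9995560, *Grin2b* (ENSMUSG00000030209) chr6:135713233-136173511 and *Grin3a* (ENSMUSG00000039579) chr4:49661611-49845744, all on the minus strand. *Gria1* (ENSMUSG00000020524) spans chr11:57011387-57330244 and *Gria3* (ENSMUSG00000001986) chrX:41400854-41678601 on the plus strand. *Gria2* (ENSMUSG00000033981) spans chr3:80681450-80802835 and *Gria4* (ENSMUSG00000025892) chr9:4417896-4796234 on the minus strand. *Grin1* overlaps the antisense gene *Grin1os*, which had a mean of 140.8 counts against 10953 for *Grin1*. *Grin2a* shares 12.2% of its 31-base words with another gene, most often with the pseudogene *Gm7328*, which had a mean of 0.179 counts.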

How the data were processed

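RNA of 28 mice was sequenced as paired-end reads. Per the labels and the study's methods, the authors estimated expression with Salmon 0.14.1 against a GRCm38 transcriptome, summarised it by gene with tximport and deposited 1 table of estimated counts, in whole numbers, per batch. Identifiers of the first table match GENCODE M21, and the second is in part from another release. Whether strand was kept is not given in the sources used here. Total counts were 20004380 to 22569562 per mouse, in which *Grin2d* had 479 to 762, and a chi-square check of the pairs within each group and batch found no duplicated library among them.

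Tables were joined on gene identifier, and a gene was kept when its counts averaged 10 or more over the mice. The test was edgeR 4.0.16 (R 4.3.3), quasi-likelihood, TMM normalisation, batch as covariate, all 3 groups in 1 fit, Benjamini-Hochberg over 16266 genes, threshold 0.05. Levels are TMM-scaled CPM per kb of the union of exons. Log2 CPM used a prior count of 2. Exact tests permuted group labels within batches (2-sided; 32340 or 16170 regroupings). Alternatives were DESeq2 1.42.0, ComBat-seq (sva 3.50.0), limma 3.58.1, other normalisations and filters, GC content and length offsets, each batch alone, a replicate block and leaving out each mouse. The edgeR fit was tested on simulated counts of 16200 and 16199 genes for Acute and Chronic against Water. Of 100 genes changed 1.25-fold it recovered 61% and 66%, of 100 changed 1.5-fold 80% and 77%, with 12 and 7 false calls. Genes were simulated independently of each other and no smaller change was simulated, so recovery at the members' fitted differences was not tested.

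The members and gene lists were chosen with earlier results of these data known. Named were all members, *Grin2c* and *Grin3b*, for each list and comparison the 2 genes of smallest p, the 2 most similar genes per member, and genes called over all genes. Values of 2 genes that this rule named and 1 sequence are not reported here. Mice of a group are separate animals. *Neto1*, *Cnih2* and *Opalin* were not in both tables and were not compared. The block was an alternative only, since the labels do not say what the shared numbers of the mice mean.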

Additional observations from a re-analysis of the deposited data

Results flagged for a closer look

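In each of 42 groups of 9 or 10 mice (9 members, *Grin2c* and 4 ratios in 3 groups), the highest and lowest mouse were compared with the others by Dixon's criterion, which flags about 1 in 20 groups by chance. A total of 2 mice stood apart. For *Grin3a*, mouse 1 of the second batch in the Acute group was at 0.176 on log2 CPM with the batch mean removed, and the next mouse at 0.005. For the ratio of *Grin1* to the sum of *Grin2a*, *Grin2b* and *Grin2d*, mouse 4 of the second batch in the Water group was at -0.308 on the log2 scale with the batch mean removed, and the next mouse at -0.110.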

How the results depend on the processing

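The number of members called was 0 in each of the 3 comparisons under all 14 other settings and with each of the 28 mice left out; the lowest adjusted p of any member was 0.0633, that of *Grin2d* in Chronic mice with ComBat-seq and DESeq2. Genes called over all genes ranged from 0 to 30 for Acute and from 0 to 98 for Chronic against Water, both highest with ComBat-seq and DESeq2, and from 0 to 1 between Chronic and Acute mice. The log2 fold change of *Grin2d* in Chronic against Water stayed positive, from 0.17 to 0.23 with 1 mouse left out and from 0.14 to 0.22 under the other settings, and its unadjusted p was under 0.05 in 41 of 42 fits, the first batch alone being the exception (p = 0.103). Its adjusted p ranged from 0.0633 to 1. That of *Gria1* was under 0.05 unadjusted in 5 of 42 fits, and that of *Grin2d* in Chronic against Acute in 33 of 42. In Acute against Water it was so in 2 of 42 fits for *Grin2a* (p = 0.0450 without mouse 34 of the first batch in the Acute group and 0.0454 without mouse 5 of the second in the Water group) and in 1 of 42 for *Grin2b* (p = 0.0483 without mouse 36 of the first batch in the Acute group), by edgeR's quasi-likelihood test. With the replicate block, which treats same-numbered mice as paired, 0 members were called in each comparison. *Grin2d* in Chronic against Water was then at 0.20, with an adjusted p of 0.265 by edgeR's quasi-likelihood test. The correlation of same-numbered mice was above 0.1 in 1 of 5, 2 of 6 and 1 of 5 pairs, with values from -0.346 to 0.338. The labels do not say whether these mice shared a litter, cage or day, and this was not tested. The block changed no call of a member.

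Signs turned in 76 of 1134 refitted values. With GC content and length offsets, Acute against Water was 0.0100 for *Grin3a*, 0.0347 for *Gria2*, 0.0085 for *Gria3* and 0.0211 for *Gria4*, Chronic against Water was 0.0337 for *Gria2*, and Chronic against Acute was -0.0318 for *Grin1*. With offsets and the replicate block these were 0.0337 for *Gria2*, 0.0040 for *Gria3* and 0.0203 for *Gria4*, then 0.0340 for *Gria2*, then -0.0328 for *Grin1* and 0.0003 for *Gria2*. *Gria2* in Chronic against Acute was 0.0008 with ComBat-seq and DESeq2, 0.0049 with ComBat-seq and edgeR, 0.0012 with DESeq2 and with RLE, 0.0031 with limma, 0.0007 with only those groups fitted and 0.0090 in the second batch. In the first batch alone, *Grin2d* in Acute was -0.0294, *Gria3* in Chronic -0.0649, and Chronic against Acute -0.0029 for *Grin1*, -0.0229 for *Grin2a* and -0.0551 for *Grin2b*. In the second, Acute against Water was 0.0198 for *Grin3a*, 0.0022 for *Gria3* and 0.0057 for *Gria4*. With limma *Grin3a* in Acute was 0.0037 and *Grin1* in Chronic against Acute -0.0077, and with no filter *Gria4* in Acute was 0.0057. With 1 mouse left out, Chronic against Acute ranged from -0.0130 to 0.0112 for *Gria2*, -0.0125 to 0.0124 for *Grin1*, -0.0179 to 0.0596 for *Grin2a* and -0.0210 to 0.0755 for *Grin2b*; Acute against Water from -0.0213 to 0.0161 for *Gria4* and -0.0608 to 0.0054 for *Grin3a*; and Chronic against Water from -0.0159 to 0.0239 for *Gria3*. The cause of these turns was not tested. Levels moved by more than 1 SD in 9 of 36 and shares or ratios in 14 of 175 recalculations, with the longest transcript length in all but 3: *Grin1* in the first batch at 48.3 CPM per kb, and the shares of *Grin1* and *Grin2a* at 54.1% and 10.2% with *Grin2c* in the NMDA sum, a setting chosen after the data were seen. Depth limits *Grin3b*, and *Grin2d* has the fewest counts of the 9.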
